A study of Caenorhabditis elegans with 43 samples.

Results

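Ribosome footprints were compared at 34, 36 and 38 h between lin-41(xe11);let-7(n2853) double mutants and lin-41(xe11) single mutants, strains of Caenorhabditis elegans that share the lin-41 allele and differ in the let-7 allele. The 6 libraries were taken by strain and hour from the 43 of the study, 3 for the double mutant and 3 for lin-41(xe11), each at 34, 36 and 38 h. Whole animals were synchronised as starved L1 larvae, fed, and collected by hours of development. These hours fall late in the fourth larval stage, when a larva turns into an adult. The remaining libraries held earlier hours of both strains, 18 to 32 h, the let-7(n2853) single mutant with an unaltered lin-41 gene, and wild type N2 with neither mutation. The labels name no clone, outcross or driver for any strain, and n2853 is known as a temperature-sensitive allele. There was 1 library per strain and hour, so hours stood in for replicates. A p-value covers how the strain difference varied between hours of a window, pooled over 18 to 38 h. It does not cover variation from culture to culture.

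The microRNA let-7 accumulates late in larval life and lowers the output of mRNAs with matching sites in their 3′ untranslated regions. The main known target is lin-41, which encodes a TRIM-NHL protein that binds and represses mRNAs of transcription factors for adult fate. The allele n2853 changes the seed of let-7, and xe11 changes the let-7 sites of lin-41 so that they match the mutant seed and no longer the wild-type one. Other let-7 targets keep sites that n2853 does not match. The let-7 family also includes mir-48, mir-84 and mir-241, which act on hbl-1 and daf-12 earlier in larval life.

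Late library totals ran from 8666852 to 12797339 counts in the double mutant, from 9165866 to 11439811 in lin-41(xe11) and from 9210584 to 10328691 in N2. Levels are given as CPM, the count scaled to library size with TMM factors, and differences as log2 fold changes of the double mutant over lin-41(xe11) ± standard error of the edgeR quasi-likelihood fit. A gene was called where its Benjamini-Hochberg adjusted p over 13740 genes was under 0.05. By rank correlation over genes, each of the 6 late libraries lay closest to the N2 library of its own hour, with rho from 0.978 to 0.986. The N2 libraries were 2 h apart, so a smaller shift in stage could go unseen. Marker lists of body wall muscle, pharynx, intestine, neurons, epidermis and somatic gonad held no called gene, with median log2 fold changes from -0.14 to 0.09. In whole animals, fewer cells of a type and less footprint signal per cell cannot be told apart. Footprints alone do not tell a change in mRNA amount from a change in its translation.

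At 34 to 38 h 33 genes were called, 13 higher in the double mutant (0.0946% of the genes tested) and 20 lower (0.146%). At an unadjusted p under 0.05 there were 700. Without the term for the hour 2 genes were called, and with the double mutant matched to lin-41(xe11) 2 h earlier or later 0 or 1 was called. Those shifted matches held 2 late pairs of libraries, where the main fit held 3, so the counts are not like for like. Equal-hour fits that also kept 2 late pairs, because 1 late hour was dropped, called from 9 to 23 genes. The genes that rose included the nuclear hormone receptor gene daf-12 and metabolic enzyme genes such as acox-1.2, cest-1.1 and ugt-65. The genes that fell included all 6 yolk protein genes and 6 cuticle collagen genes. All 33 are annotated as protein coding. Values at the 3 hours had 1 sign in 31 of the 33, against 4132 of the 13740 genes tested. The 2 groups of libraries did not overlap in 7 of the 13 higher and 6 of the 20 lower genes. Over all genes tested they did not overlap in 612 (4.45%). The same libraries chose the called genes, so these counts are a description.

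**Figure D1:**
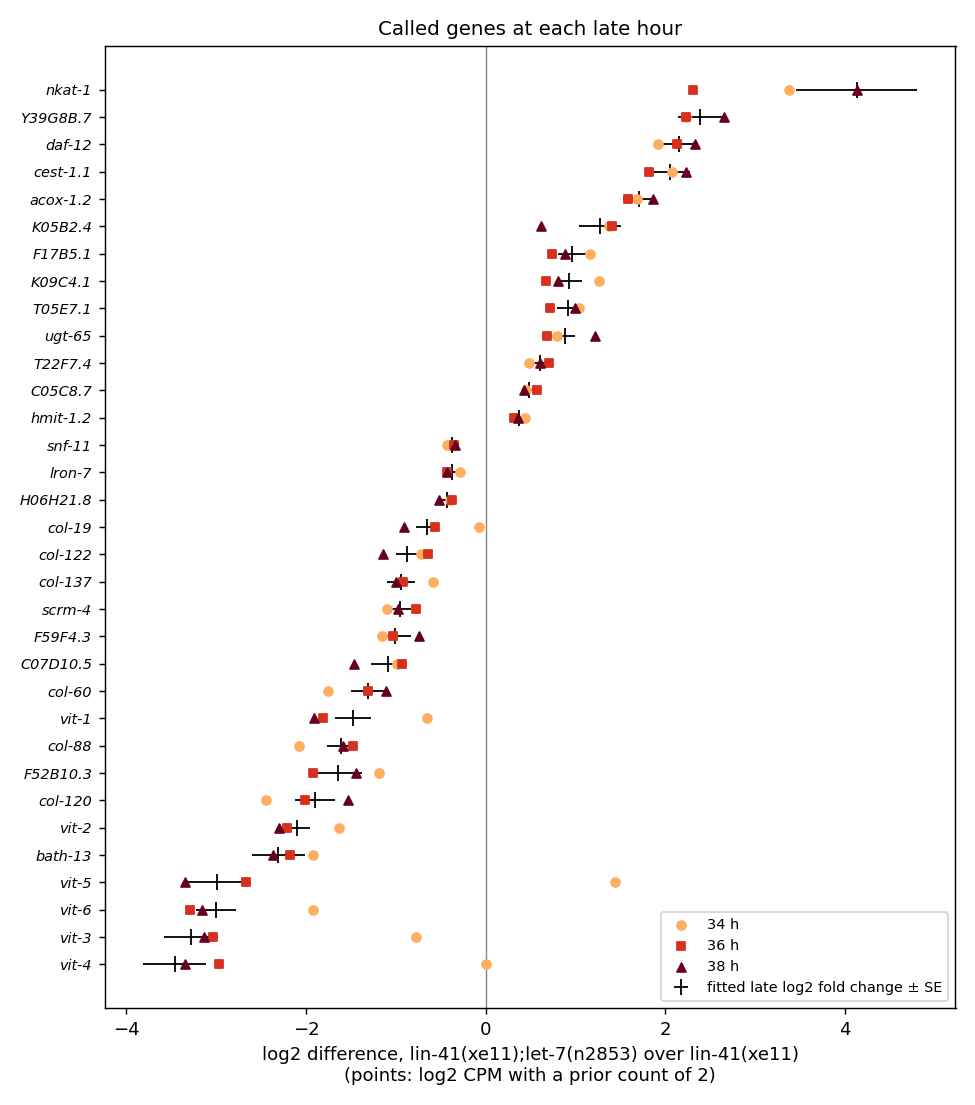
Log2 difference of lin-41(xe11);let-7(n2853) over lin-41(xe11) for the 33 called genes, with 1 point per hour (34, 36 and 38 h, log2 CPM with a prior count of 2) and the fitted late fold change ± standard error as a cross. The 13 higher genes lie right of 0 at all 3 hours, and vit-5 and vit-4 are the genes whose 34 h point does not lie left of 0 with the others.

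The gene that xe11 alters, lin-41, which lies at 9334800 to 9342496 of chromosome I (WBcel235, as for all positions here), had overlapping footprint levels in the 2 strains. It stood at 20.1, 28.0 and 43.5 CPM in the double mutant at 34, 36 and 38 h, at 16.7, 27.5 and 57.2 CPM in lin-41(xe11), and at 10.7, 19.4 and 43.8 CPM in N2. The level was higher at 38 h than at 34 h in all 3 strains. Earlier, at 26 to 32 h, lin-41 averaged 35.4 ± 10.2 CPM in the double mutant and 40.1 ± 5.08 CPM in lin-41(xe11). N2 lay lower in those hours, at 11.6 ± 9.65 CPM (SD, n = 4 hours each). At 32 h the double mutant had 25.0 CPM, lin-41(xe11) 34.2 CPM and N2 6.35 CPM. The log2 fold change of the double mutant over lin-41(xe11) at 26 to 32 h was -0.22 ± 0.10 (adjusted p = 0.925). The late log2 fold change was -0.05 ± 0.12 (adjusted p = 1), and without 38 h it was 0.14. In let-7(n2853), whose lin-41 gene is unaltered, the level was 52.6 CPM at 34 h and 54.8 CPM at 36 h. These libraries come from another time course with another way of purifying monosomes, so strain and course cannot be told apart there. Because let-7 is a microRNA and not translated, footprints gave no direct check of the n2853 allele.

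The direct targets of LIN41 that carry its heterochronic role were not called. LIN-29 is a zinc-finger transcription factor that drives adult epidermal fate, and MAB-10 is its NAB-type cofactor. Footprints of lin-29 stood at 10.29, 6.26 and 7.06 CPM in the double mutant, at 10.29, 7.48 and 8.19 CPM in lin-41(xe11), and at 20.96, 13.5 and 9.05 CPM in N2. The levels of mab-10 were 8.0, 3.08 and 2.35 CPM in the double mutant, 6.26, 4.68 and 3.14 CPM in lin-41(xe11), and 15.9, 9.90 and 5.09 CPM in N2. For both genes the 2 xe11 strains overlapped and lay below N2 at each hour. Their late log2 fold changes were -0.14 ± 0.17 for lin-29 and -0.13 ± 0.28 for mab-10 (adjusted p = 1 for both). Of the DM-domain factors that act in male tissues, mab-3 had a difference of 0.23 ± 0.32 at 0.374 to 1.47 CPM in the double mutant and 0.270 to 1.45 CPM in lin-41(xe11). The other, dmd-3, did not exceed 0.824 CPM in the double mutant or 0.337 CPM in lin-41(xe11) and was below the filter on low counts.

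The 10 candidate targets of the let-7 family, lin-41 among them, had a median late log2 fold change of 0.14, against 0.00126 over all genes. Of the 10, 1 was called higher, where 0.0946% of all genes tested were. That gene was daf-12 (chromosome X, 10635908 to 10666875), the receptor for the steroid hormones called dafachronic acids, which links larval stage progression to the dauer decision. It stood at 26.7, 22.1 and 26.6 CPM in the double mutant, at 6.94, 4.95 and 5.16 CPM in lin-41(xe11), and at 7.06, 6.52 and 5.31 CPM in N2. The lowest double mutant library was above the highest of the other 2 strains, and lin-41(xe11) and N2 overlapped. The gene rose 4.43-fold (2.15 ± 0.19, adjusted p = 0.00026), with adjusted p from 0.00281 to 0.00975 when a late hour was left out. Its level in let-7(n2853) was 37.05 CPM at 34 h and 30.3 CPM at 36 h.

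The hours before show when the strains parted. In the 4 early hours, 18 to 24 h, daf-12 averaged 57.7 ± 20.2 CPM in the double mutant, 55.1 ± 16.36 CPM in lin-41(xe11) and 55.2 ± 18.2 CPM in N2 (SD, n = 4 hours each). At 26, 28, 30 and 32 h it was 38.6, 31.6, 39.1 and 41.3 CPM in the double mutant, against 20.5, 12.03, 12.9 and 9.68 CPM in lin-41(xe11). From 26 h on no double mutant library was as low as any lin-41(xe11) library of those or later hours. The fitted log2 fold change was 0.05 ± 0.13 early, 1.46 in the middle window of 26 to 32 h (adjusted p = 0.00399) and 2.15 late.

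The other candidates had smaller differences. Footprints of hbl-1, which encodes a Hunchback-like transcription factor of early larval fates, stood at 5.31, 2.99 and 2.59 CPM in the double mutant, at 2.80, 2.16 and 1.12 CPM in lin-41(xe11), and at 2.12, 1.41 and 1.24 CPM in N2. The double mutant was higher at each hour, but its 38 h library lay below the 34 h library of lin-41(xe11), and the difference was 0.82 ± 0.19 (adjusted p = 0.202). The early larval timing factors lin-14 and lin-28 had 0.26 ± 0.12 and 0.17 ± 0.12. The Ras gene let-60 had 0.11 ± 0.10, and pha-4, the FoxA factor of pharynx development, had 0.08 ± 0.11. The zinc-finger gene die-1 had 0.01 ± 0.10. The nuclear receptors that act in molting had 0.34 ± 0.17 for nhr-25 and -0.01 ± 0.13 for nhr-23. None of these 7 passed the test, with adjusted p of at least 0.982. Over the wider list of 16 heterochronic genes, 15 were tested and daf-12 alone was called. Of 10 tested genes of dafachronic acid synthesis and action, none was called. The largest difference among them was 0.62 ± 0.16 (adjusted p = 0.302) for daf-9, the cytochrome P450 of the last step of dafachronic acid synthesis.

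**Figure D2:**
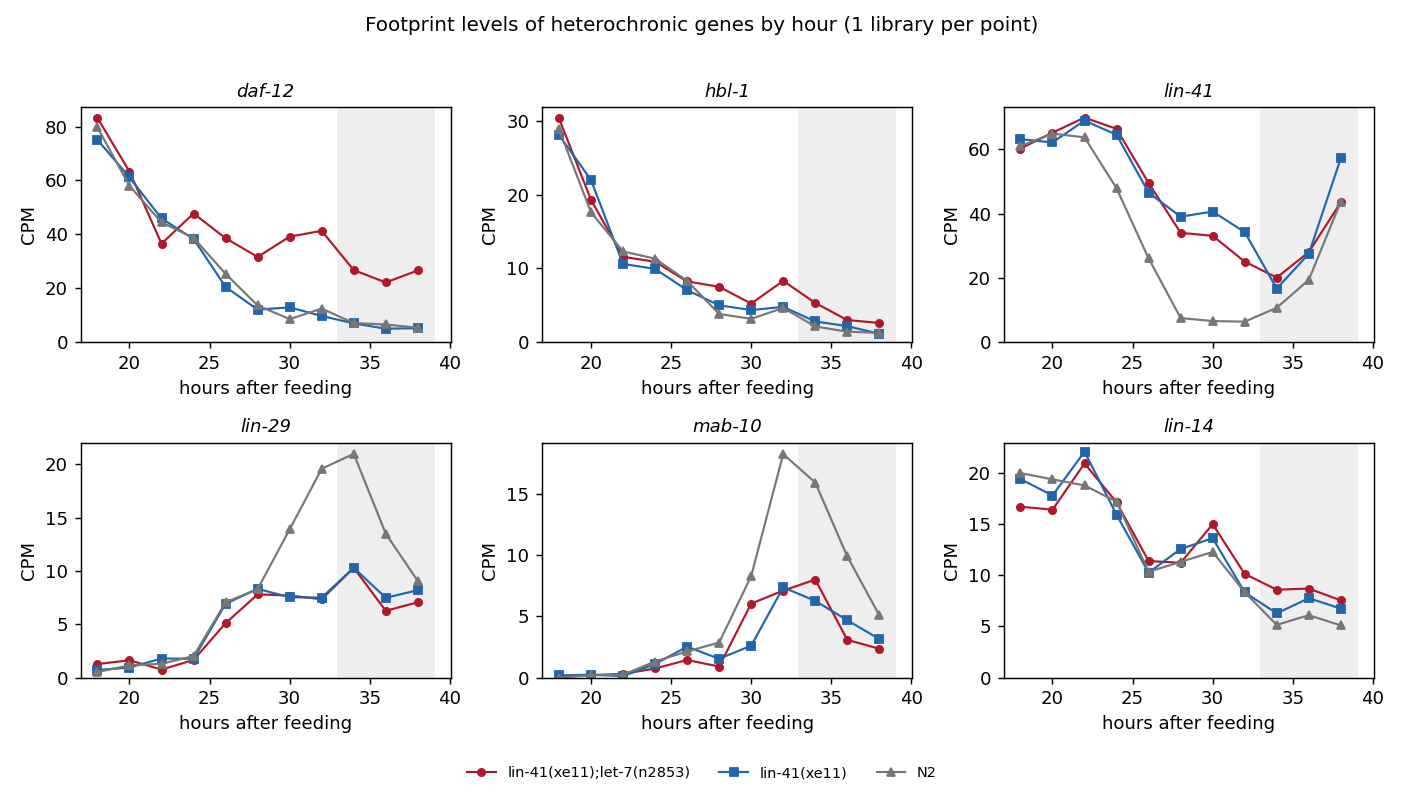
Footprint levels in CPM against hours after feeding for 6 heterochronic genes in lin-41(xe11);let-7(n2853), lin-41(xe11) and N2, with 1 library per point and the late hours shaded. For daf-12 the double mutant ran from 22.1 to 26.7 CPM late, above both other strains, while for lin-29 and mab-10 the 2 xe11 strains lay below N2 at the late hours.

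The vitellogenin genes, which encode yolk proteins made in the intestine of the adult hermaphrodite and taken up by oocytes, fell together. All 6 were called lower, where 0.146% of all genes tested were. Their median late log2 fold change was -2.995, against 0.00126 over all genes tested. Their summed level was 72.5, 323 and 1368 CPM at 34, 36 and 38 h in the double mutant, 135, 1789 and 8275 CPM in lin-41(xe11), and 318, 2206 and 11120 CPM in N2. The sum climbed with each hour in all 3 strains. The double mutant stood below lin-41(xe11) of 2 h earlier at 38 h and above it at 36 h. With the double mutant matched to lin-41(xe11) 2 h earlier none of the vitellogenins tested was called. The values of vit-6, vit-2 and vit-5 turned to 0.80, 1.24 and 0.91, and vit-3 and vit-4 were below the filter and not tested. Without the term for the hour none of the 6 was called. Leaving out 34 h kept 6 calls, and leaving out 36 h or 38 h left 2, those of vit-6 and vit-2. Of the 6 calls, 5 held with N2 added to the fit, 4 with DESeq2 and 1, vit-6, with limma on the deposited log2 values.

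For vit-6 (chromosome IV, 8261157 to 8266459), levels were 3.51, 75.6 and 422 CPM in the double mutant, 13.8, 743 and 3780.2 CPM in lin-41(xe11), and 81.0, 1168 and 5948 CPM in N2. The gene fell 7.996-fold in the fit (-2.999 ± 0.22, adjusted p = 4.19e-05). For vit-2 (chromosome X, 5101042 to 5106169), levels were 8.57, 147 and 694 CPM in the double mutant, 26.8, 681 and 3409 CPM in lin-41(xe11), and 134, 764 and 3849 CPM in N2. It fell 4.29-fold (-2.10 ± 0.14, adjusted p = 4.19e-05), and it was called in the middle window as well, at -2.45 (adjusted p = 0.0263). Both genes were lower in the double mutant at each hour, although the 3-hour ranges of the strains overlapped because of the steep climb.

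Levels of vit-1 were 59.8, 97.5 and 232 CPM in the double mutant, 94.2, 342 and 874 CPM in lin-41(xe11), and 95.3, 192 and 699 CPM in N2. Its difference was -1.48 ± 0.20 (adjusted p = 0.0048), with adjusted p = 0.154 without 36 h and 0.105 without 38 h. The remaining genes, vit-3, vit-4 and vit-5, are near-identical copies, and the treatment of reads that match several genes is not given in the sources used here, so their separate values are uncertain. Raw counts at 34, 36 and 38 h were 0, 1 and 25 for vit-3 in the double mutant, against 1, 21 and 242 in lin-41(xe11). They were 0, 1 and 20 for vit-4 in the double mutant, against 0, 20 and 226 in lin-41(xe11). They were 7, 31 and 132 for vit-5 in the double mutant, against 1, 213 and 1419 in lin-41(xe11). At 34 h vit-4 had no count in either strain and vit-5 was higher in the double mutant, so these calls rest on 36 and 38 h. The fitted differences were -3.28 ± 0.30, -3.46 ± 0.35 and -2.99 ± 0.38 for vit-3, vit-4 and vit-5 (adjusted p = 0.00912, 0.00469 and 0.047). In let-7(n2853) the summed vitellogenin level was 69.5 CPM at 34 h and 59.2 CPM at 36 h.

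None of the 8 tested genes that control vitellogenin expression or take up yolk was called, and their median was -0.07. The 2 lowest differences were -0.47 ± 0.20 for ceh-60, a homeodomain activator of vitellogenin genes, and -0.44 ± 0.23 for rme-2, the yolk receptor of oocytes (adjusted p = 0.934 and 1). The GATA factor of the intestine, elt-2, had -0.09 ± 0.13. Of the oocyte and eggshell genes 16 of 17 lay below 0 with a median of -0.16, and of the meiotic genes 16 of 17 with a median of -0.08, and none was called. Summed oocyte and eggshell levels ran from 2560 to 3654 CPM in the double mutant, from 2678 to 4038 CPM in lin-41(xe11) and from 2749 to 4020 CPM in N2. Their part in the vitellogenin result was not tested. Intestinal markers summed to 7026 to 10104 CPM in the double mutant, against 6773 to 8610 CPM in lin-41(xe11), and 4 of the 6 tested lay above 0.

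**Figure D3:**
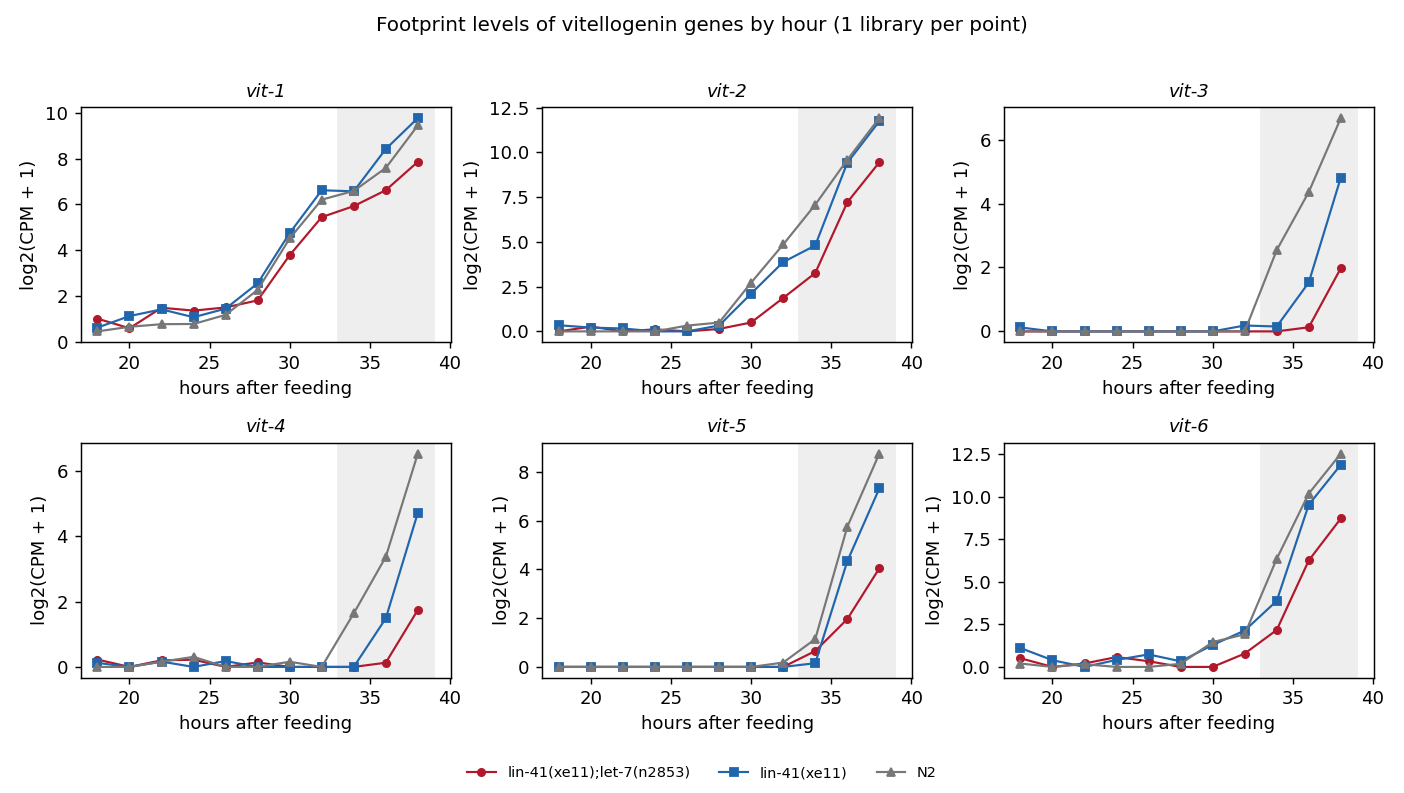
Log2(CPM + 1) of the 6 vitellogenin genes against hours after feeding in lin-41(xe11);let-7(n2853), lin-41(xe11) and N2, with 1 library per point and the late hours shaded. Levels climbed in all strains, and at 38 h vit-6 reached 422 CPM in the double mutant, 3780.2 CPM in lin-41(xe11) and 5948 CPM in N2.

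Cuticle collagens of the col family, which build the extracellular coat renewed at each molt, were mostly lower by small amounts. Of 135 tested, 96 lay below 0, the median was -0.13, and 6 were called lower and none higher. Over all genes tested 0.146% were called lower. The 6 were col-88, col-120, col-60, col-122, col-137 and col-19, all lower at 34 h than at 36 h and at 36 h than at 38 h in each of the 3 strains. Their ranges overlapped between the 2 xe11 strains because of that climb. All 6 were lower in lin-41(xe11) than in N2 at all 3 hours. Among the 109 collagens with a mean of at least 5 CPM, 84 lay below 0 and in none did the groups fail to overlap. Collagen genes are similar in sequence, and the treatment of shared reads is not given in the sources used here.

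Levels of col-88 were 2.61, 33.7 and 122 CPM in the double mutant, 11.5, 94.2 and 369 CPM in lin-41(xe11), and 439, 1265 and 1721 CPM in N2. Its difference was -1.62 ± 0.15 (adjusted p = 0.00029), and it was called whichever of the 3 hours was left out. Levels of col-120 were 2.37, 12.05 and 24.5 CPM in the double mutant, 13.6, 48.9 and 71.1 CPM in lin-41(xe11), and 404, 789 and 937 CPM in N2, with a difference of -1.90 ± 0.22 (adjusted p = 0.00159). Without 36 h its adjusted p was 0.0729. The adult-specific collagen gene col-19, a known output of LIN-29, stood at 3.92, 51.8 and 226 CPM in the double mutant, 4.14, 76.6 and 425 CPM in lin-41(xe11), and 46.3, 308 and 1509.8 CPM in N2. The 2 xe11 strains were nearly level at 34 h and parted at 38 h. Its difference was -0.65 ± 0.12 (adjusted p = 0.0437), with adjusted p = 0.374 without 36 h and 1 without 38 h. The differences of col-60, col-122 and col-137 were -1.31 ± 0.19, -0.88 ± 0.13 and -0.94 ± 0.15 (adjusted p = 0.00774, 0.00774 and 0.0201). For col-60 and col-137 the call was lost whichever hour was left out, with adjusted p from 0.0602 to 0.229 for col-60 and from 0.0593 to 0.871 for col-137. For col-122 it was lost without 38 h (adjusted p = 0.58). With N2 added to the fit col-120 alone of the 6 was called, DESeq2 called 3 and limma called 2. Matched to lin-41(xe11) 2 h earlier, col-88, col-60, col-122, col-137 and col-19 turned to 0.96, 0.44, 1.95, 2.12 and 2.54, and none of the 6 was called there or without the term for the hour.

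Of 9 tested genes of the adult epidermis, a list that includes collagens of the col family, col-19 alone was called, 6 lay below 0 and the median was -0.13. The collagen gene bli-2, needed for adult cuticle struts, had 0.12 ± 0.14 at 644, 367 and 187 CPM in the double mutant, against 746, 325 and 141 CPM in lin-41(xe11) and 1443, 1238 and 480 CPM in N2. The collagen gene col-49 had -0.22 ± 0.23 and rol-1, which affects adult body shape, had -0.15 ± 0.18 (adjusted p = 1 for all 3). The 6 furrow collagens (median 0.05), 21 molting and apical matrix genes (0.06) and 9 molting clock regulators (0.08) held no called gene. Summed levels of the 9 adult epidermal genes were 2076 to 3082 CPM in the double mutant, 2752 to 3187 CPM in lin-41(xe11) and 12204 to 15399 CPM in N2, so both xe11 strains lay below N2.

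Of the other 12 genes called higher, 7 have clone names, among them Y39G8B.7 with the smallest adjusted p of the 12, and acox-1.2, cest-1.1 and ugt-65 encode metabolic enzymes. The gene acox-1.2 (chromosome I, 12942280 to 12946588) encodes a peroxisomal acyl-CoA oxidase, of the family that shortens the side chains of ascaroside pheromones. It stood at 366, 302 and 103 CPM in the double mutant, at 114, 101 and 28.3 CPM in lin-41(xe11), and at 75.5, 98.7 and 30.8 CPM in N2. The double mutant was higher at each hour, its 38 h library alone lay within the range of lin-41(xe11), and the gene rose 3.27-fold (1.71 ± 0.18, adjusted p = 0.000743). The carboxylesterase gene cest-1.1 (chromosome V, 14163255 to 14166730) stood at 29.3, 31 and 23.3 CPM in the double mutant, at 6.82, 8.65 and 4.83 CPM in lin-41(xe11), and at 5.44, 8.16 and 4.07 CPM in N2. Its groups did not overlap, and it rose 4.14-fold (2.05 ± 0.22, adjusted p = 0.000861). The glycosyltransferase gene ugt-65 (chromosome IV, 12420683 to 12432636) stood at 71.3, 65 and 47.2 CPM in the double mutant, at 40.9, 40.5 and 20.2 CPM in lin-41(xe11), and at 26.3, 30.8 and 18.3 CPM in N2. Its groups did not overlap either, and it rose 1.85-fold (0.89 ± 0.10, adjusted p = 0.00167). These 3 genes were called whichever hour was left out. Matched to lin-41(xe11) 2 h earlier or later none of them was called, and the log2 fold change was 0.74 or 2.64 for acox-1.2, 1.82 or 2.22 for cest-1.1 and 0.46 or 1.26 for ugt-65.

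Levels of acox-1.2 went up and down through the larval hours in all strains, and the double mutant stood furthest above the others at the last peak. Its log2 fold change over lin-41(xe11) was 0.49 ± 0.15 at 26 to 32 h (adjusted p = 0.803), against 1.71 late. Its highest early level, at 18 or 20 h, was 488 CPM in the double mutant, 426 CPM in lin-41(xe11) and 480 CPM in N2. The highest of 26 to 32 h was 357 CPM in the double mutant, 260 CPM in lin-41(xe11) and 248 CPM in N2. The highest late level was 366 CPM in the double mutant, 114 CPM in lin-41(xe11) and 98.7 CPM in N2. For cest-1.1 the highest levels of the early, middle and late hours were 40.7, 33.5 and 31 CPM in the double mutant, 29.7, 27.3 and 8.65 CPM in lin-41(xe11), and 34.8, 21.9 and 8.16 CPM in N2. In the double mutant the last peak thus stayed close to the middle one for both genes, and in lin-41(xe11) and N2 it was lower.

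The inositol transporter gene hmit-1.2 had a small difference of 0.38 ± 0.06 (adjusted p = 0.0299), at 45.6, 41.4 and 32 CPM in the double mutant and 33.7, 33.3 and 24.9 CPM in lin-41(xe11). Its call was lost whichever hour was left out (adjusted p = 0.211 to 0.458). The rule then took, in order of p, 5 uncalled genes above 0 with a family-type symbol and a mean of at least 5 CPM. Of these irg-5, an infection response gene, had 0.94 ± 0.19 (adjusted p = 0.0894), and cyp-37A1, a cytochrome P450, had 0.82 ± 0.17 (adjusted p = 0.0992). The acyl-CoA synthetase gene acs-7 had 0.64 ± 0.13, the C-type lectin gene clec-72 had 0.55 ± 0.11 and the short-chain dehydrogenase gene dhs-20 had 0.48 ± 0.10 (adjusted p = 0.0894, 0.0807 and 0.0831). Of 58 UDP-glucuronosyltransferases tested, ugt-65 alone was called, 39 lay above 0 and the median was 0.09, and ugt-47, ugt-5 and ugt-62 had -0.48 ± 0.12, 0.38 ± 0.10 and -0.37 ± 0.10 without passing (adjusted p = 0.272, 0.294 and 0.381). None of 51 cytochromes P450 (35 above 0, median 0.12), 29 short-chain dehydrogenases (0.06), 35 glutathione S-transferases (0.04), 33 acyl-CoA synthetases and dehydrogenases (-0.02) or 174 nuclear hormone receptors with nhr names (0.05) was called.

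**Figure D4:**
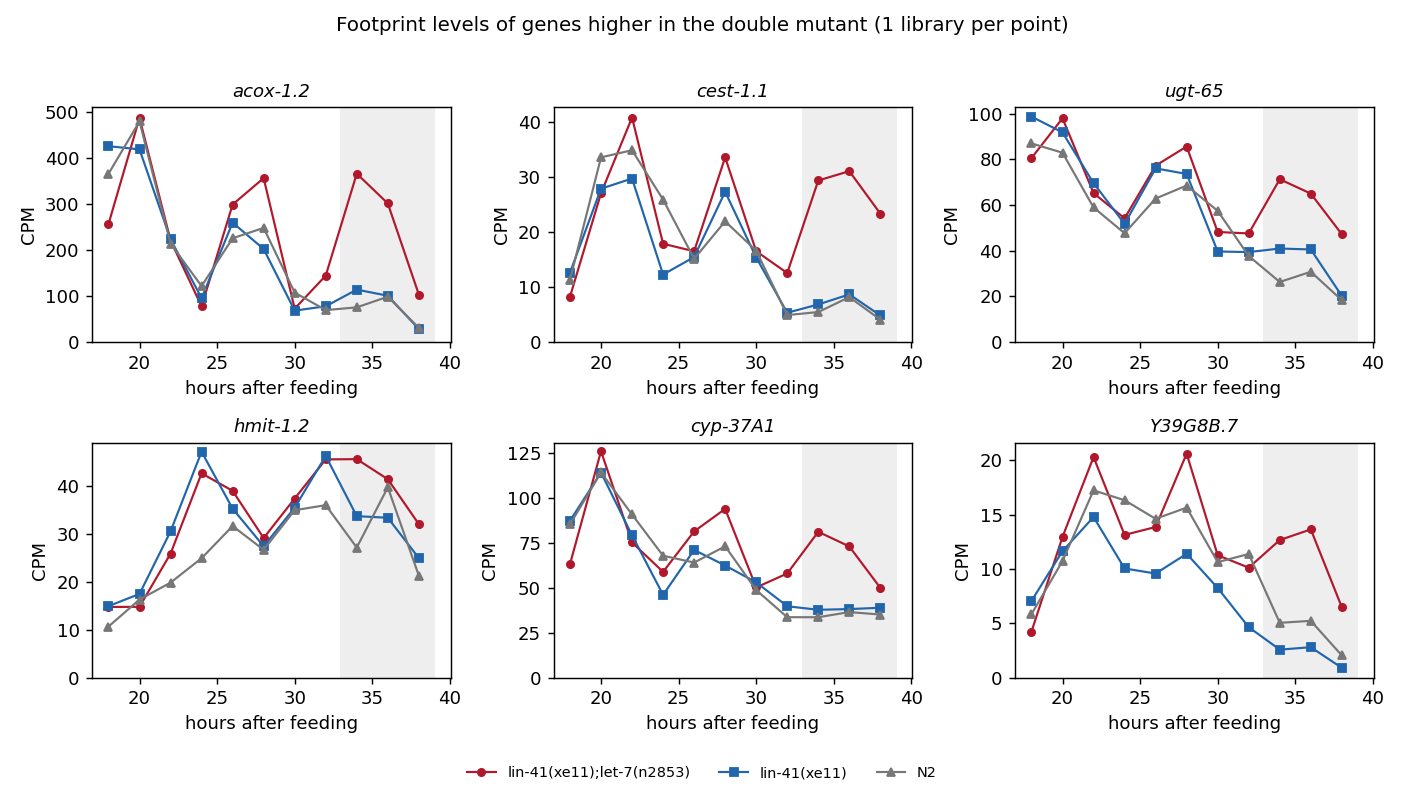
Footprint levels in CPM against hours after feeding for 6 genes higher in lin-41(xe11);let-7(n2853) than in lin-41(xe11), with N2 beside them, 1 library per point and the late hours shaded. For acox-1.2 all strains had peaks at 18 to 20 h and 26 to 28 h, and the late peak was 366 CPM in the double mutant, against 114 CPM in lin-41(xe11) and 98.7 CPM in N2; cyp-37A1 was not called.

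The remaining called genes fell outside the rule for naming and were added after their values were seen. Higher were 7 genes known by clone names, to which no role is given here: Y39G8B.7 (2.39 ± 0.24), K05B2.4 (1.27 ± 0.23), F17B5.1 (0.96 ± 0.15), K09C4.1 (0.93 ± 0.14), T05E7.1 (0.92 ± 0.12), T22F7.4 (0.61 ± 0.09) and C05C8.7 (0.48 ± 0.06). Of these Y39G8B.7 stood at 12.7, 13.6 and 6.47 CPM in the double mutant, 2.57, 2.79 and 0.898 CPM in lin-41(xe11), and 5.04, 5.22 and 2.04 CPM in N2, with no overlap between the xe11 strains (adjusted p = 0.000609). It was called whichever hour was left out. The calls of the other 6 were lost without 38 h (adjusted p = 0.0654 to 0.116), and each of them was lost without 34 h or 36 h as well. Lower by small amounts were lron-7, a leucine-rich repeat gene (-0.38 ± 0.06), snf-11, a GABA transporter gene (-0.37 ± 0.07), and H06H21.8 (-0.43 ± 0.08). C07D10.5 was lower by more (-1.09 ± 0.19). The calls of these 4 were lost without 36 h and without 38 h, with adjusted p from 0.192 to 0.555, and without 34 h that of lron-7 alone remained.

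A few called genes differed between the 2 strains at all hours or had almost no counts in one of them. The scramblase family gene scrm-4 stood at 11.3, 14.7 and 13.2 CPM in the double mutant, 24.5, 25.1 and 26.1 CPM in lin-41(xe11), and 23.9, 32.3 and 24.1 CPM in N2. Its log2 fold change was -0.84 ± 0.12 early, -1.05 in the middle window and -0.95 ± 0.12 late (adjusted p = 0.0619, 0.00464 and 0.00332), and the late call was lost without 38 h (adjusted p = 0.0654). The BTB and MATH domain gene bath-13 had 12, 7 and 5 counts in the double mutant, against 37, 39 and 33 in lin-41(xe11), with -2.50 early and -2.31 late (adjusted p = 0.0544 and 0.00375). Its late mean was 0.741 CPM in the double mutant, 3.78 CPM in lin-41(xe11) and 1.40 CPM in N2, so lin-41(xe11) was the highest strain and N2 lay between. Without 36 h or 38 h its late adjusted p was 0.0729 or 0.0654. No double mutant library reached 1 CPM at any hour. The gene bath-13 thus passed the filter on low counts through lin-41(xe11) alone, and its adjusted p values are a description. F52B10.3 and F59F4.3 had late differences of -1.65 ± 0.27 and -1.01 ± 0.18 beside early ones of -1.35 ± 0.20 and -1.13 ± 0.15. Both calls were lost whichever late hour was left out, with adjusted p from 0.0658 to 0.609.

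The kynurenine aminotransferase gene nkat-1 (chromosome X, 14137810 to 14140140) had 18, 21 and 22 counts in the double mutant, against 0, 3 and 0 in lin-41(xe11). The ratio of the summed counts, 61 against 3 and scaled for depth, was 18.8, with a 95% counting interval of 6.13 to 93.5 that covers counting error only. N2 had 1.21, 2.50 and 2.60 CPM, close to the 1.47, 1.96 and 2.59 CPM of the double mutant. Here lin-41(xe11) was therefore the strain that stood apart, with at most 0.27 CPM. In the fit, adjusted p was 0.047. The gene passed the filter on low counts through the 3 late double mutant libraries alone, so this value and the interval are a description. With any late hour left out it was below the filter and not tested.

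To tell late differences from those that the strains had from the start, the late fold change was tested against the early one. The difference passed for 5 genes (0.0364% of those tested), at an unadjusted p under 0.05 for 610. All 5 were among the genes called higher late. For daf-12 it was 2.10 ± 0.23 (adjusted p = 0.00842), for Y39G8B.7 2.26 ± 0.29 (adjusted p = 0.0161), for acox-1.2 1.92 ± 0.23 (adjusted p = 0.0109), for cest-1.1 1.94 ± 0.28 (adjusted p = 0.0301) and for ugt-65 0.95 ± 0.13 (adjusted p = 0.0283). Each of the 5 calls was lost when any late hour was left out, at adjusted p from 0.0608 to 0.243, with values of 1.999 to 2.21 for daf-12. The difference was not called for any vitellogenin or collagen. Early sums of the 6 vitellogenins did not exceed 2.31 CPM in the double mutant and 2.14 CPM in lin-41(xe11). For hmit-1.2 it was 0.54 ± 0.09 (adjusted p = 0.0708).

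In the early hours alone no gene was called by edgeR, with 763 at an unadjusted p under 0.05, a smallest adjusted p of 0.0505 (F59F4.3) and 13 called by DESeq2. In the middle window 4 genes were called (0.0291%), daf-12, scrm-4, bath-13 and vit-2. The 13 genes called higher late had a median log2 fold change of -0.02 early, 0.34 in the middle window and 0.96 late. The 20 called lower had -0.19, -0.54 and -1.39. The late values chose these genes, so the medians are a description.

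**Figure D5:**
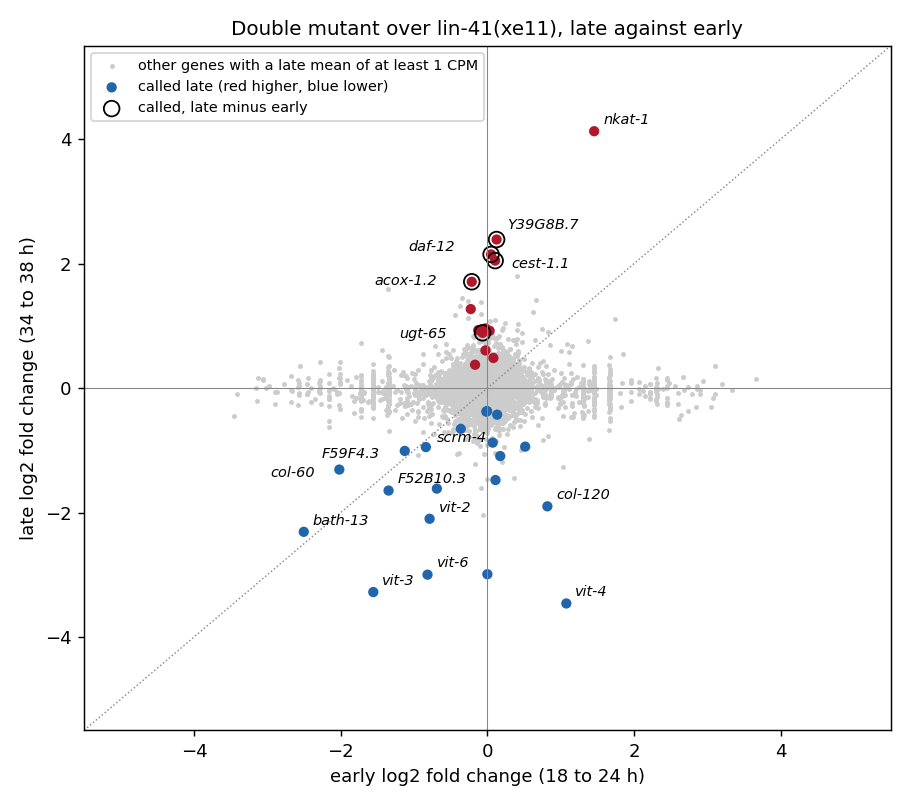
Late (34 to 38 h) against early (18 to 24 h) log2 fold change of lin-41(xe11);let-7(n2853) over lin-41(xe11) for 12813 genes with a late mean of at least 1 CPM, in grey, with called genes in red (higher) and blue (lower) and the 5 genes called late minus early ringed. The ringed genes lie above 0 late and near 0 early, while scrm-4, bath-13, F59F4.3 and F52B10.3 lie near the diagonal.

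Set beside N2, the called genes held different orders of the 3 strains. By mean late CPM, 8 of the 13 higher genes had the double mutant above lin-41(xe11) and lin-41(xe11) above N2, 4 had N2 between the 2 xe11 strains, and nkat-1 had N2 on top. Among all genes tested with the double mutant above lin-41(xe11), 43.2% had lin-41(xe11) above N2. Of the 20 lower genes 14 had lin-41(xe11) between the double mutant and N2, where 40.9% of all genes with the double mutant below lin-41(xe11) did, and 6 had lin-41(xe11) on top. In let-7(n2853), 12 of the 13 higher genes (92.3%) lay above N2 at both 34 and 36 h, where 41% of all genes tested did. Of the 20 lower genes, 18 (90%) lay below N2 at both hours, where 36.9% of all genes did. The N2 libraries took no part in the choice of the genes, but strain and time course cannot be told apart in let-7(n2853).

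Of the 33 called genes 13 lay on chromosome X, 39.4% of them, where 13.98% of the genes tested lie, and 5 of the 13 were vitellogenin genes. The gene let-7 lies on chromosome X as well, at 14743590 to 14745321 in the RefSeq annotation of WBcel235. The called genes nearest to it were nkat-1, at 0.605 Mb, and F59F4.3, at 1.101 Mb, and daf-12 was 4.09 Mb away. Variants linked to the let-7 allele were not tested.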

How the data were processed

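Ribosome-protected fragments were sequenced from whole animals of 4 strains, at 11 hours in each strain of the second time course, which holds both strains compared here. The authors deposited counts of footprints for 20182 genes and a table of log2 values. Bowtie was the aligner, per the submitters' processing notes. Which version, build, gene models and rule for reads matching several genes were used is not given in the sources used here. The deposited log2 values equal log2(scaled count + 8), as computed here from both tables. Symbols were matched for 18778 genes. Coordinates are those of WBcel235, in which 19513 of the identifiers were found.

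Counts of the 22 libraries of both strains were fitted with edgeR 4.0.16 (R 4.3.3, TMM factors, at least 1 CPM in at least 3 libraries, 8 residual degrees of freedom), with a term for each hour and a strain term for each of 3 windows, 18 to 24, 26 to 32 and 34 to 38 h. The labels give the hour of each library, and pairing libraries of the same hour was a choice made for the fit. CPM are scaled over all 43 libraries. The fit was tested on simulated data. DESeq2 1.42.0 and limma 3.58.1 served as alternatives.

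Named were lin-41, the candidate let-7 targets, LIN41 targets and vitellogenins, then the 10 highest and 10 lowest late fold changes of called genes (mean of at least 5 CPM, family-type symbol, 1 sign at 3 hours, places filled by p), up to 4 genes per further list with a call, and the 6 smallest p of late minus early. The comparison, the lists and these rules were chosen with earlier results of these data known.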

Additional observations from a re-analysis of the deposited data

Results flagged for a closer look

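The late and the early effect of the let-7 allele differed by the edgeR test of late minus early for 5 genes, in log2 units of the double mutant over lin-41(xe11). The value was 2.10 for daf-12 (adjusted p = 0.00842). It was 2.26 for Y39G8B.7 (adjusted p = 0.0161) and 1.92 for acox-1.2 (adjusted p = 0.0109). It was 1.94 for cest-1.1 (adjusted p = 0.0301) and 0.95 for ugt-65 (adjusted p = 0.0283). All 5 were higher in the double mutant at all 3 late hours. No group held 4 or more libraries at 34 to 38 h, so outlying libraries were not looked for.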

How the results depend on the processing

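The late count was 33. With no replicate block, that is without the term for the hour, it was 2 (daf-12 and bath-13), and late minus early, early and middle counts were 0, 2 and 2 against 5, 0 and 4. With the 6 late libraries alone the late count was 161, including all 33. Leaving out a late hour gave late counts of 9 to 23, the lowest without 38 h and 11 without 36 h, and late minus early counts of 0 each, while early hours, left out as an alternative chosen after seeing the data, gave 3 to 5. Early counts ran from 0 to 2 with an early or a late hour left out, and middle counts from 2 to 4 with a late hour left out; hours of 26 to 32 h were not left out, and all alternatives for the middle count were chosen after seeing the data. With N2 added the counts were 31 late, of which 24 were shared, and 3 early. The split was 18 higher and 13 lower with N2 and 23 higher of 40 with DESeq2, against 13 and 20. DESeq2 gave 16 late minus early, 13 early and 8 middle. With no filter on low counts 4 early genes were called, with limma on the deposited log2 values 2, and with the late window from 32 h 3 early and 3 late minus early. The cause of these changes was not tested.

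Matching the double mutant to lin-41(xe11) 2 h earlier left 0 calls late, 0 late minus early and 0 in the middle window, and 2 h later 1, 0 and 2. Each shifted match held 2 late pairs of libraries only. So did each equal-hour fit that lacked 1 late hour, and those called 9 to 23 genes late. Under the earlier match the late differences turned for vit-6 (0.80), vit-2 (1.24), vit-5 (0.91), col-19 (2.54), col-137 (2.12), col-122 (1.95), col-88 (0.96), col-60 (0.44), H06H21.8 (0.29) and lron-7 (0.067), all called lower at equal hours. It also turned lin-41 (0.73), col-49 (0.53), rol-1 (0.48), ugt-47 (0.14), ugt-5 (-0.0098), pha-4 (-0.017), clec-72 (-0.0796), die-1 (-0.38), mab-3 (-0.52) and bli-2 (-0.89), and late minus early for hmit-1.2 (-0.21). Under the later match mab-10 (0.41), nhr-23 (0.39) and lin-29 (0.0526) turned. The value of daf-12 stayed between 2.03 and 2.27 in all 13 alternatives and was called in 11, all but the shifted matches. Uncalled values near 0 also turned without the hour term for bli-2 (-0.013), die-1 (-0.00043) and nhr-23 (0.0025), and from 32 h for bli-2 (-0.0705). With a late hour left out, lin-41 ran from -0.19 to 0.14, die-1 from -0.039 to 0.10, nhr-23 from -0.091 to 0.12, bli-2 from -0.018 to 0.29 and mab-10 from -0.52 to 0.093. Genes of a few counts, such as vit-3, vit-4 and nkat-1, were below the filter on low counts under some settings and were not tested there. The same held for vit-5 without 36 h or without 38 h.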

Other observations

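Ribosomal protein genes lay above 0 in 72 of 76, with a median late log2 fold change of 0.07 and an early one of 0.19, and none was called. Of 18 tested innate immune genes 12 lay above 0, with a median of 0.19 and none called. Sperm genes lay below 0 in 13 of 16, with a median of -0.04. All 4 tested flavin monooxygenase genes lay above 0, and their summed level ran from 221 to 635 CPM in the double mutant, from 169 to 282 CPM in lin-41(xe11) and from 204 to 242 CPM in N2, with none called.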
